A study of Homo sapiens with 6 samples.

Results

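YAP1 and WWTR1, the gene of TAZ, the 4 TEAD genes and 4 genes often used as readouts of YAP and TAZ (CCN1, CCN2, ANKRD1 and AMOTL2) were compared between A172 cells that carried RBFOX1 and A172 cells that carried GFP. These 10 genes were picked by symbol, with earlier results of these data known, and looked up by Ensembl identifier. CCN1 and CCN2 are also known as CYR61 and CTGF. All 10 were found among the 58051 genes of the count tables, and all 10 were among the 20536 genes with at least 10 counts over the 6 libraries that entered the test. The A172 line was established from a human glioblastoma. Both groups received lentiviral particles made in HEK293T cells together with polybrene, and they differed in the expression plasmid, which held RBFOX1 in one group and GFP, the control, in the other. Each group had 3 biological replicates, and rRNA-depleted, stranded libraries were made from their total RNA. The sources used here did not give the promoter of the construct, or whether a stable line was 1 clone or a pool of cells. Nor did they say whether each replicate was a separate transduction. If replicates were cultures of 1 line per plasmid, the tests measure spread between cultures, and plasmid and line cannot be told apart. The counts are from whole cultures, so a larger share of cells that express a gene and more RNA of that gene per cell cannot be told apart.

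YAP and TAZ are coactivators that cannot bind DNA themselves. In the nucleus they join TEAD transcription factors, which recognize short DNA elements, and together they switch on genes for matrix proteins, cytoskeletal regulators and growth factors. The Hippo kinase cascade restrains them, since the kinases LATS1 and LATS2 phosphorylate YAP and TAZ, which are then held in the cytoplasm by 14-3-3 proteins or degraded. Because that control acts on the proteins, the mRNA levels of YAP1 and WWTR1 and the activity of their products are separate quantities, and RNA-seq measures only the former. In glioblastoma the pathway is known mainly for its link to invasive, mesenchymal cell states.

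The libraries held between 7433414 and 23249221 counts on genes. RBFOX1 itself had 4, 0 and 1 counts in the GFP libraries and 10276, 16467 and 21451 in the RBFOX1 libraries, so each library matched its label. GFP replicate 1 differed more from the other GFP libraries (chi-square per degree of freedom of 8.08 and 8.23 over genes) than any other replicates of a group did from each other (1.60 to 2.80). Of 8 genes chosen as glioma markers, VIM and CD44 were abundant, with at least 37325 normalized counts of VIM in each library, while GFAP had at most 4 counts and S100B at most 2. Of the 7 that were tested, 2 were higher, NES (1.52-fold) and SOX2 (5.79-fold). Another 4 were lower, VIM (1.57-fold), CD44 (1.87-fold), SOX9 (2.21-fold) and OLIG2 (1.41-fold). The summed level of the list, most of it VIM, ran from 77512 to 78658 normalized counts in GFP and from 51001 to 51717 in RBFOX1 libraries. Of 5 markers of other cell types, 4 were tested and 3 (PTPRC, PECAM1 and CDH1) were higher in RBFOX1 cells, with at most 74 counts of any of them in a library, the summed level running from 30.6 to 42.5 normalized counts in GFP and from 140 to 149 in RBFOX1 libraries; their part in the results below was not tested. Here a normalized count is a count scaled to the mean effective library size by the TMM method. Fold changes compare RBFOX1 with GFP cells and are called at an adjusted p under 0.05 from edgeR's quasi-likelihood test, adjusted over all genes tested.

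All 4 target genes rose, by 2.05- to 4.0-fold, and so did both coactivators and 3 of the 4 TEAD genes, most of them by far less. In total 9 of the 10 genes were higher in RBFOX1 cells, none was lower, and TEAD3 did not pass. Of the 20536 genes tested, 23.7% were called higher, 22.9% lower and 46.7% in either direction. The same 9 genes had no overlap between the groups, each with the RBFOX1 libraries above, which held for 26.9% of all genes tested, while 53.4% had no overlap in one direction or the other. Each of the 10 genes averaged 50 or more normalized counts. Among the 12012 genes that did so, 3656 were called higher, 4010 lower, and 8242 had no overlap in either direction. With each replicate left out in turn, GFP replicate 1 included, 9 of the 10 were called higher every time. The median log2 fold change of the 10 genes was 0.80, compared with 0.0051 over all genes tested. It was 0.30 for the coactivators, 0.45 for the TEAD genes and 1.46 for the targets. Requiring more than a 1.5-fold change in the test itself kept 5 of the 10, namely TEAD4 and the 4 targets, where 8.33% of all genes tested were called higher.

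**Figure D1:**
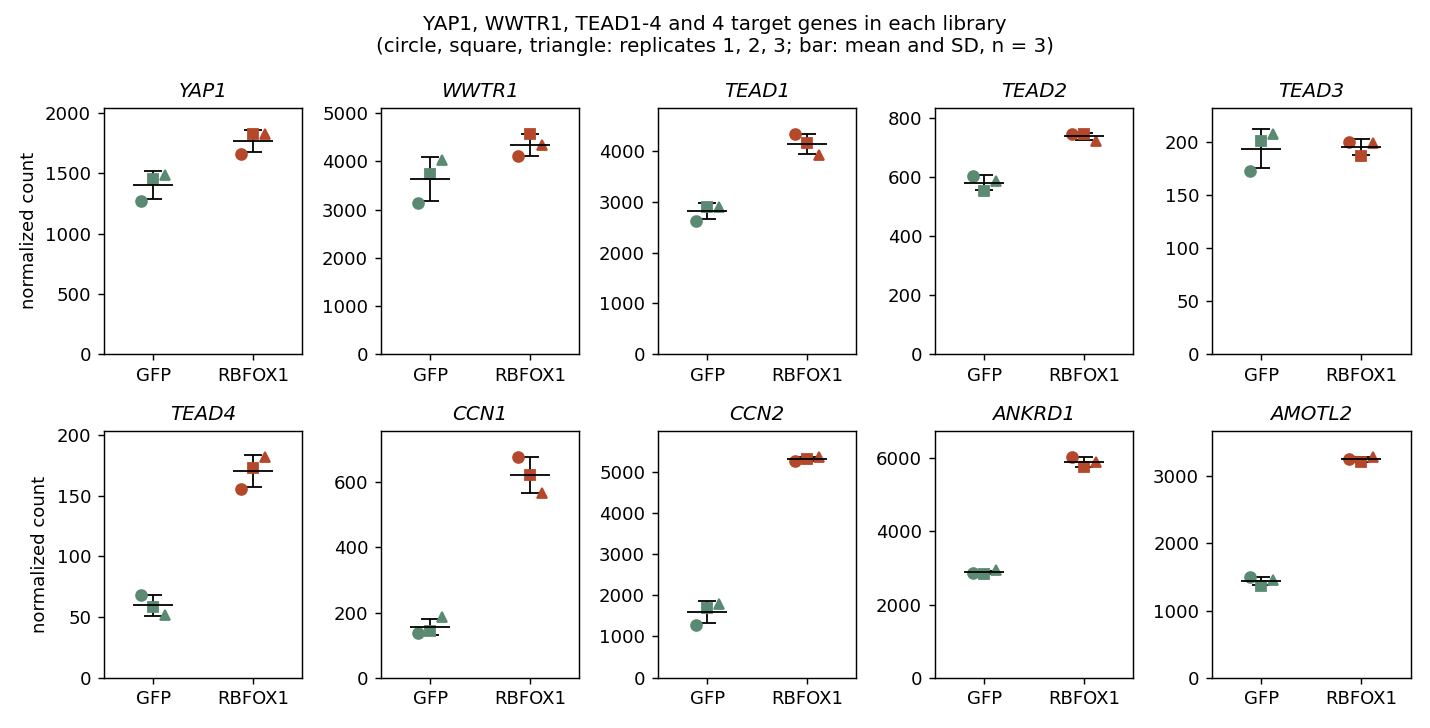
Normalized count of each of the 10 genes (vertical axes, each starting at 0) in the 3 GFP and the 3 RBFOX1 libraries, with the mean and SD of each group. The 3 RBFOX1 libraries lie above the 3 GFP libraries in every gene but TEAD3, and the separation is widest, relative to the level, in CCN1 and CCN2.

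The coactivator mRNAs rose slightly. YAP1 (ENSG00000137693, chromosome 11 of GRCh38, 102110447 to 102233424, plus strand) had 1273, 1455 and 1487 normalized counts in GFP replicates 1, 2 and 3 and 1665, 1827 and 1823 in RBFOX1 replicates 1, 2 and 3. Every RBFOX1 library lay above every GFP library, and the log2 fold change was 0.34 (standard error, SE, 0.0622, edgeR adjusted p = 0.000113), or 1.27-fold. WWTR1 (ENSG00000018408, chromosome 3, 149517235 to 149736714, minus strand) had 3137, 3747 and 4037 normalized counts in GFP and 4114, 4570 and 4351 in RBFOX1 cells. Its groups were close, the highest GFP library lying just under the lowest RBFOX1 library, and its log2 fold change was 0.26 (SE 0.0697, edgeR adjusted p = 0.00422), or 1.2-fold. GFP replicate 1, the deepest library, was the lowest for both genes. Without it the log2 fold change of WWTR1 was 0.17 (adjusted p = 0.00409 from edgeR) and that of YAP1 was 0.28.

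Per exonic length, WWTR1 was the more abundant of the coactivators, at 31.4 ± 3.96 FPKM (fragments scaled to exonic length and library size; SD, n = 3) in GFP and 37.5 ± 1.97 in RBFOX1 cells. YAP1 had 16.0 ± 1.32 and 20.2 ± 1.06 FPKM (SD, n = 3 each). The ratio of YAP1 to WWTR1, which does not depend on library scaling, was 0.537, 0.514 and 0.488 in the GFP libraries and 0.536, 0.529 and 0.555 in the RBFOX1 libraries. The groups overlapped in this ratio (exact permutation test, two-sided, p = 0.3, or 0.3 when adjusted over the 6 ratios and shares examined). The smallest p that 3 against 3 libraries can give is 0.1.

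Of the TEAD genes, which encode the DNA-binding partners of YAP and TAZ, TEAD4 rose most. TEAD4 (ENSG00000197905, chromosome 12, 2959330 to 3040676, plus strand) had 68.6, 58.4 and 51.6 normalized counts in GFP and 156, 173 and 182 in RBFOX1 cells. The groups were far apart, and the log2 fold change was 1.5 (SE 0.130, edgeR adjusted p = 8.18e-09), or 2.82-fold. TEAD1 (ENSG00000187079, chromosome 11, 12674421 to 12944737, plus strand), the TEAD gene with most counts, had 2630, 2905 and 2896 normalized counts in GFP and 4333, 4154 and 3928 in RBFOX1 cells. It was higher in every RBFOX1 library, with a log2 fold change of 0.56 (SE 0.0534, edgeR adjusted p = 3.20e-08). TEAD2 (ENSG00000074219, chromosome 19, 49340595 to 49362457, minus strand) had 603, 554 and 589 normalized counts in GFP and 746, 747 and 724 in RBFOX1 cells. It too rose without overlap, by 1.27-fold (log2 fold change 0.34, SE 0.0636, edgeR adjusted p = 0.000167). TEAD3 (ENSG00000007866, chromosome 6, 35473597 to 35497079, minus strand) had 173, 201 and 208 normalized counts in GFP and 200, 187 and 199 in RBFOX1 cells. Its libraries were intermixed, and its log2 fold change was 0.024 (SE 0.10, edgeR adjusted p = 0.874), or -0.0645 without GFP replicate 1.

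Measured per exonic length, the TEAD genes kept TEAD1 first and TEAD2 second in both groups, at 18.9 ± 1.05 and 14.1 ± 0.621 FPKM in GFP and 27.9 ± 1.37 and 17.9 ± 0.311 FPKM in RBFOX1 cells (SD, n = 3 each). In GFP cells TEAD3 (4.58 ± 0.433 FPKM) stood above TEAD4 (1.89 ± 0.271 FPKM). In RBFOX1 cells the means were 4.61 ± 0.174 FPKM for TEAD3 and 5.39 ± 0.415 FPKM for TEAD4 (SD, n = 3 each), so the order of the lowest pair changed. By this measure TEAD4 was above TEAD3 in each RBFOX1 library and below it in each GFP library. In normalized counts TEAD3 stayed above TEAD4 in each RBFOX1 library (200, 187 and 199 against 156, 173 and 182). The change of order therefore depends on the exonic lengths used. As a share of the summed TEAD level, TEAD4 made up 5.63, 4.68 and 4.06% in the GFP libraries and 8.69, 9.81 and 10.6% in the RBFOX1 libraries. TEAD3 made up 10.6 to 12.2% in GFP and 7.88 to 8.64% in RBFOX1 libraries. TEAD2 made up 33.8 to 37.8% and 31.7 to 32.3%. For each of these 3 shares the groups did not overlap (exact permutation test, two-sided, p = 0.1 each, which is the smallest possible, and 0.2 after adjustment over the 6 ratios and shares). The share of TEAD1 overlapped between the groups, at 45.9 to 49.5% in GFP and 48.6 to 51.3% in RBFOX1 libraries (p = 0.2 by the same exact test, 0.24 adjusted).

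**Figure D2:**
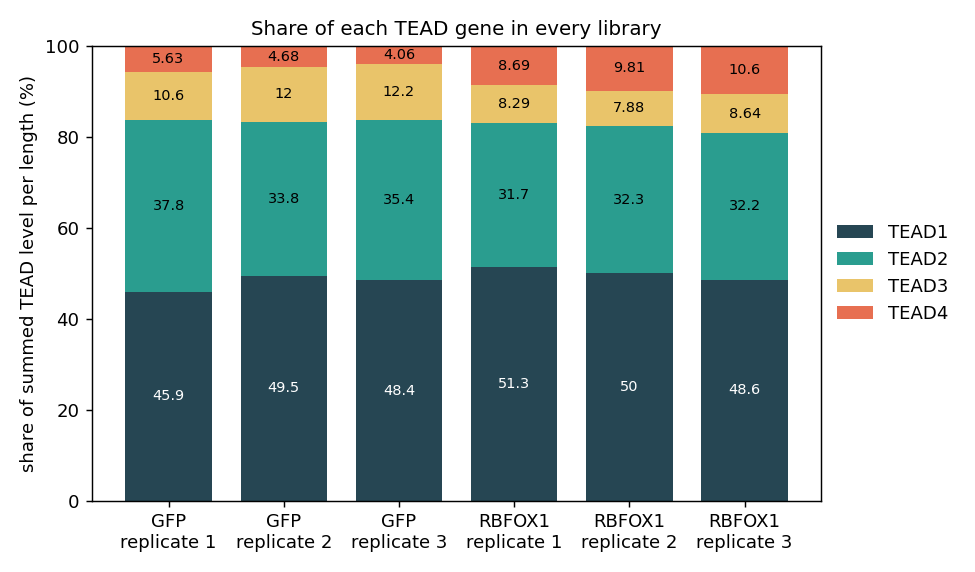
Share of TEAD1, TEAD2, TEAD3 and TEAD4 (%, vertical axis) in their summed level per exonic length, one bar per library. TEAD1 and TEAD2 hold most of the sum in every library, and the TEAD4 share is 4.06 to 5.63% in GFP and 8.69 to 10.6% in RBFOX1 libraries.

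Vestigial-like proteins bind TEAD factors at the surface that YAP and TAZ use. VGLL4, which competes with YAP for TEAD, had 1461, 1413 and 1493 normalized counts in GFP and 1743, 1988 and 1917 in RBFOX1 cells. It rose without overlap between the groups, by 1.30-fold (log2 fold change 0.38, SE 0.0557, edgeR adjusted p = 1.15e-05). VGLL1, VGLL2 and VGLL3 had no count in any library, which allows up to 3 counts in each, or 1.82 normalized counts in the deepest library and 5.44 in the shallowest.

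The target genes rose more than the genes of their regulators, apart from TEAD4. CCN1 and CCN2 encode secreted matricellular proteins that bind integrins, ANKRD1 encodes an ankyrin repeat protein of nucleus and sarcomere, and AMOTL2 encodes an angiomotin that binds YAP and holds it at junctions, so that it acts as a feedback inhibitor. CCN2 is the textbook target, with TEAD elements close to its start. The element GGAATG was therefore searched on both strands, as GGAATG or CATTCC, in the 250 bases before each RefSeq transcription start (GRCh38.p14), for which 7 of the 10 genes had a window. There were no windows for TEAD1, TEAD4 and CCN1. CCN2 held 3 elements, starting 169, 104 and 95 bases before the start. ANKRD1 held 2, starting 220 and 128 bases before it. AMOTL2 held 1 in the window of its downstream start and none in that of its upstream start, and YAP1 held 1. The windows of WWTR1, TEAD2 and TEAD3 held none. Of all 35116 RefSeq windows, 11.9% held at least 1 element, 0.94% held 2 or more and 0.0826%, or 29 windows, held 3 or more. The stretches that contain the elements of the 2 target genes with more than 1 are shown here for that reason, on the strand of the gene, with the element in capitals and 12 bases on either side. The CCN2 stretch is chr6:131951450-131951553 and the ANKRD1 stretch is chr10:90921198-90921319, both on the minus strand. The single element of AMOTL2 lies within chr3:134374499-134374528, also on the minus strand, and that of YAP1 within chr11:102110273-102110302 on the plus strand.
CCN2: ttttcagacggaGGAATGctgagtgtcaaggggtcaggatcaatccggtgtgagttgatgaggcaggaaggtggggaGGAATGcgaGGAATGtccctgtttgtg
ANKRD1: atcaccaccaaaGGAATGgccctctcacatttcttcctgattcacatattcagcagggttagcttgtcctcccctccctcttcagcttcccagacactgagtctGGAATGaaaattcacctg
AMOTL2: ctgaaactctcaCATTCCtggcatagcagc
YAP1: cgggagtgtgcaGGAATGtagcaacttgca
A match of these letters is a description of the sequence and was not tested as a binding site.

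**Figure D3:**
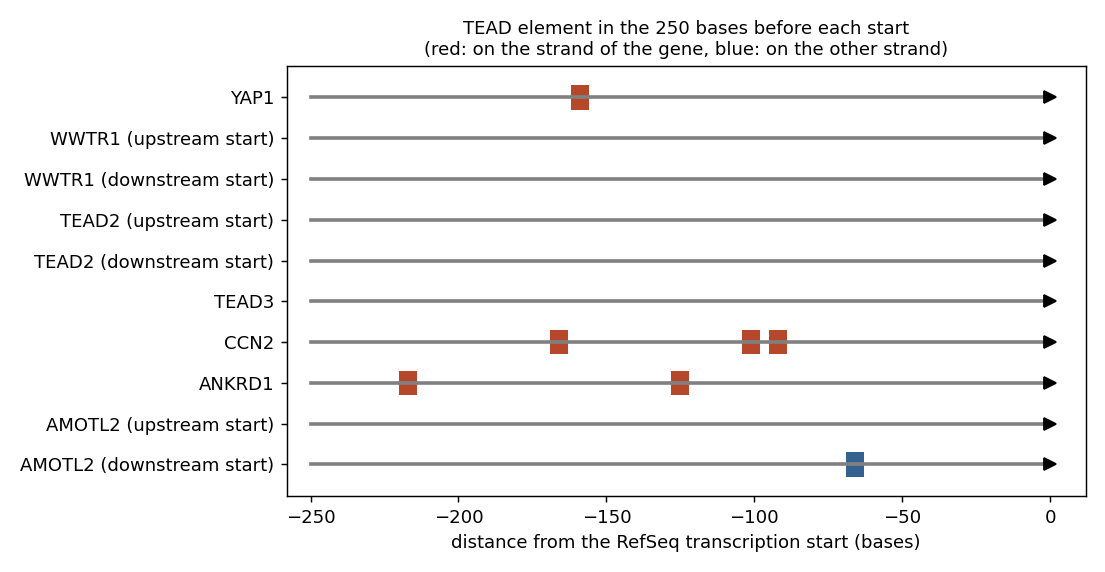
Position of the TEAD element (boxes) in the 250 bases before each RefSeq transcription start of the 7 genes with a window; the horizontal axis is the distance from the start in bases and the arrowhead marks the start. The 3 boxes of CCN2 and the 2 of ANKRD1 are on the strand of the gene, and the box of AMOTL2 is on the other strand.

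CCN1 (ENSG00000142871, chromosome 1, 85580761 to 85584589, plus strand) had 138, 145 and 185 normalized counts in GFP and 677, 623 and 566 in RBFOX1 cells. The lowest RBFOX1 library stood far above the highest GFP library, and the gene rose 4.0-fold (log2 fold change 2.0, SE 0.101, edgeR adjusted p = 2.04e-12). CCN2 (ENSG00000118523, chromosome 6, 131948176 to 131951372, minus strand) had 1283, 1679 and 1797 normalized counts in GFP and 5246, 5311 and 5344 in RBFOX1 cells. Its RBFOX1 libraries were nearly level while its GFP libraries spread more widely, with GFP replicate 1 lowest, and it rose 3.36-fold (log2 fold change 1.75, SE 0.0820, edgeR adjusted p = 6.46e-13). AMOTL2 (ENSG00000114019, chromosome 3, 134355347 to 134375479, minus strand) had 1496, 1372 and 1454 normalized counts in GFP and 3263, 3216 and 3283 in RBFOX1 cells. Both groups were tight, and it rose 2.25-fold (log2 fold change 1.17, SE 0.0502, edgeR adjusted p = 1.61e-13). Of its exonic bases, 187 are shared with the pseudogene RPL39P5 on the same strand, where gene-level counting leaves a read that fits both genes out. The largest exonic overlaps with a counted gene on the other strand were 756 bases in WWTR1, 628 in YAP1, 319 in TEAD2 and 278 in CCN2. The methods of the study did not say whether its counting kept the strands apart. ANKRD1 (ENSG00000148677, chromosome 10, 90912096 to 90921087, minus strand) had 2876, 2832 and 2933 normalized counts in GFP and 6026, 5768 and 5898 in RBFOX1 cells. It rose 2.05-fold, again with no overlap (log2 fold change 1.03, SE 0.0463, edgeR adjusted p = 3.23e-13).

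Among 12012 genes averaging 50 or more normalized counts, the log2 fold change of CCN1 was higher than that of 98.6%, CCN2 of 98.1%, TEAD4 of 97.3%, AMOTL2 of 95.6% and ANKRD1 of 94.4%. For TEAD1, YAP1, TEAD2, WWTR1 and TEAD3 the corresponding shares were 87, 78.7, 78.4, 73.8 and 54.1%. The targets thus sat near the top of the genome-wide range and the coactivators did not. With each replicate left out in turn, the log2 fold change ran from 1.89 to 2.13 in CCN1, from 1.61 to 1.85 in CCN2, from 1.13 to 1.21 in AMOTL2 and from 1.02 to 1.05 in ANKRD1.

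The levels of the targets per exonic length differed more than their fold changes. ANKRD1 had the highest level, 116 ± 2.04 FPKM in GFP and 237 ± 5.19 FPKM in RBFOX1 cells (SD, n = 3 each), followed by CCN2 with 48.9 ± 8.30 and 163 ± 1.55 FPKM. AMOTL2 had 16.0 ± 0.703 and 36.2 ± 0.379 FPKM, and CCN1 was lowest with 3.04 ± 0.501 and 12.1 ± 1.08 FPKM (SD, n = 3 each). This order was the same in both groups. The ratio of CCN1 to CCN2 was 0.0679, 0.0545 and 0.0652 in GFP and 0.0815, 0.0741 and 0.0670 in RBFOX1 libraries. The groups overlapped in this ratio, with RBFOX1 replicate 3 just below GFP replicate 1 (exact permutation test, two-sided, p = 0.2, adjusted 0.24). Since the smallest possible p is 0.1, this test did not settle whether the 2 CCN genes differed in fold.

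Other genes of a published signature of 22 YAP and TAZ targets were examined, leaving out the 4 above. Of these 18 genes, 17 were tested, 12 were higher, 3 were lower and 2 did not pass the threshold, where 23.7% of all genes tested were higher and 22.9% lower. Their median log2 fold change was 0.53, against 0.0051 over all genes tested. Against the GFP mean it was 0.54, 0.56 and 0.51 in RBFOX1 replicates 1, 2 and 3. Each of the 17 genes averaged 50 or more normalized counts. Of the 12012 genes that did so, 3656 were called higher and 4010 lower. F3, the gene of tissue factor, which starts blood coagulation, had 83.2, 91.1 and 72.7 normalized counts in GFP and 521, 473 and 459 in RBFOX1 cells, a 5.84-fold rise (log2 fold change 2.55, SE 0.0990, edgeR adjusted p = 3.79e-14). RBMS3, an RNA-binding protein gene, rose 2.97-fold, TGFB2, which encodes a TGF-beta ligand, rose 2.84-fold, and IGFBP3, which encodes a carrier of insulin-like growth factors, rose 2.82-fold, each without overlap between the groups. The signature also had members that fell. These were picked out after their values were seen. NT5E, the gene of the ectoenzyme CD73, had 10136, 9524 and 9616 normalized counts in GFP and 5766, 5366 and 5623 in RBFOX1 cells and was 1.75-fold lower. ASAP1, a GTPase-activating protein gene, was 1.64-fold lower, also without overlap. PTPN14, a phosphatase that binds YAP, was 1.17-fold lower with groups that overlapped (adjusted p = 0.0237 from edgeR, 0.201 with DESeq2), a call that was lost without GFP replicate 2 or 3 or RBFOX1 replicate 2 or 3 (adjusted p of 0.103 to 0.130). Without GFP replicate 1 its log2 fold change went from -0.22 to -0.34 (edgeR adjusted p = 1.54e-06). Signature genes called lower numbered 2, in place of 3, with limma-voom, with scaling by total count and at a threshold of 0.01. LATS2 and DOCK5 did not pass the threshold, and FOXF2 had no count in any library.

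**Figure D4:**
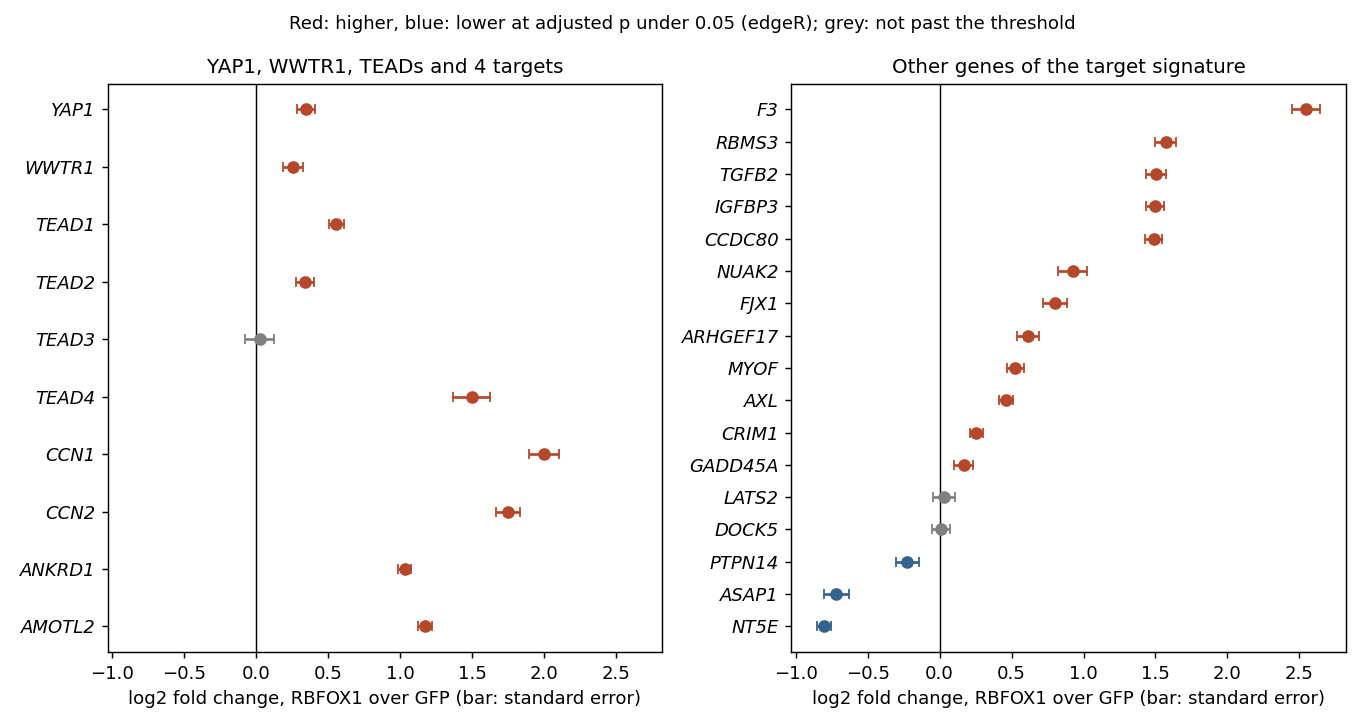
Log2 fold change of RBFOX1 over GFP cells (horizontal axes) with its standard error for the 10 genes (left) and for the 17 tested genes of the target signature that are not among them (right). The 4 targets and TEAD4 lie at 1.03 or above, YAP1 and WWTR1 at 0.34 and 0.26, and the signature runs from NT5E at -0.81 to F3 at 2.55.

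All 22 genes of the Hippo kinase core and its adaptors were tested. Of these, 6 were higher, 6 were lower and 10 did not pass the threshold, where 23.7% of all genes tested were higher and 22.9% lower. All of the 22 but MAP4K1 averaged 50 or more normalized counts. Of the 12012 genes that did so, 3656 were called higher and 4010 lower. The median log2 fold change of the 22 genes, most of which act to restrain YAP and TAZ, was 0.0067. The kinases LATS1 and LATS2, which phosphorylate YAP and TAZ directly, had log2 fold changes of 0.053 (SE 0.0806, edgeR adjusted p = 0.637) and 0.031 (standard error 0.0734, adjusted p = 0.775). Without GFP replicate 1 both lay at about the same distance below 0 (-0.0488 and -0.05). Their groups overlapped, LATS1 running from 448 to 552 normalized counts in GFP and from 530 to 532 in RBFOX1 libraries. STK3 and STK4, the kinases MST2 and MST1 upstream of LATS, had log2 fold changes of -0.16 (adjusted p = 0.0906 from edgeR, or 0.0398 without GFP replicate 1) and -0.26 (adjusted p = 0.00149), so that STK4 fell, by 1.19-fold. MOB1A, a coactivator of LATS kinases, had 4125, 3991 and 4117 normalized counts in GFP and 2369, 2531 and 2496 in RBFOX1 cells and was 1.65-fold lower. MAP4K4, a kinase that can act on LATS in parallel to STK3 and STK4, fell most. It had 16944, 18554 and 18464 normalized counts in GFP and 6490, 6553 and 6525 in RBFOX1 cells, and was 2.76-fold lower (log2 fold change -1.46, SE 0.0498, edgeR adjusted p = 5.34e-15). Among the genes that rose, WWC2, a KIBRA family scaffold, was 1.79-fold higher, from 1317, 1282 and 1388 to 2400, 2353 and 2389 normalized counts. NF2, the gene of merlin, was 1.65-fold higher, from 132, 133 and 141 to 259, 208 and 214 normalized counts.

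Another list held 23 scaffold, junction and 14-3-3 genes linked to YAP, TAZ or the Hippo pathway. Of these, 11 were higher, 7 were lower and 5 did not pass the threshold, against 23.7% higher and 22.9% lower among all genes tested. Their median log2 fold change was 0.087. DESeq2 and limma-voom each called 5 of them lower. Each of the 23 genes averaged 50 or more normalized counts. Of the 12012 genes that did so, 3656 were called higher and 4010 lower. AMOT, the founding angiomotin, had 40.7, 53.7 and 57.9 normalized counts in GFP and 207, 160 and 150 in RBFOX1 cells, a 3.41-fold rise (log2 fold change 1.77, SE 0.157, edgeR adjusted p = 1.03e-08). AJUBA, a LIM protein that binds and inhibits LATS kinases, rose 2.68-fold, from 636, 651 and 642 to 1658, 1654 and 1835 normalized counts. SFN, the 14-3-3 sigma gene, rose 2.21-fold, and DCHS1, a giant cadherin gene, rose 1.77-fold, both without overlap between the groups. AMOTL1, the third angiomotin gene, rose 1.42-fold. All 3 angiomotin genes were therefore higher in RBFOX1 cells. Of 5 tested family relatives of the target genes, 2 were higher (AMOT and AMOTL1), 2 were lower and 1 did not pass the threshold. Of all genes tested, 23.7% were higher and 22.9% lower. The 2 lower genes were CCN and ANKRD relatives. CCN3, also known as NOV, had 479, 390 and 439 normalized counts in GFP and 210, 224 and 218 in RBFOX1 cells and was 2.01-fold lower (log2 fold change -1.01, SE 0.0895, edgeR adjusted p = 1.05e-08), opposite in direction to CCN1 and CCN2. ANKRD23 was 1.74-fold lower at 5 to 41 counts a library (adjusted p = 0.0225 from edgeR, or 0.106 with DESeq2), and did not pass without GFP replicate 2 (0.0685), RBFOX1 replicate 1 (0.0849) or RBFOX1 replicate 3 (0.0721). ANKRD2 had 2 to 9 counts in every library and did not pass the threshold (log2 fold change 0.95, adjusted p = 0.127 from edgeR). CCN4 and CCN5 had at most 2 counts in a library and CCN6 had none, so no fold is given for them.

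**Figure D5:**
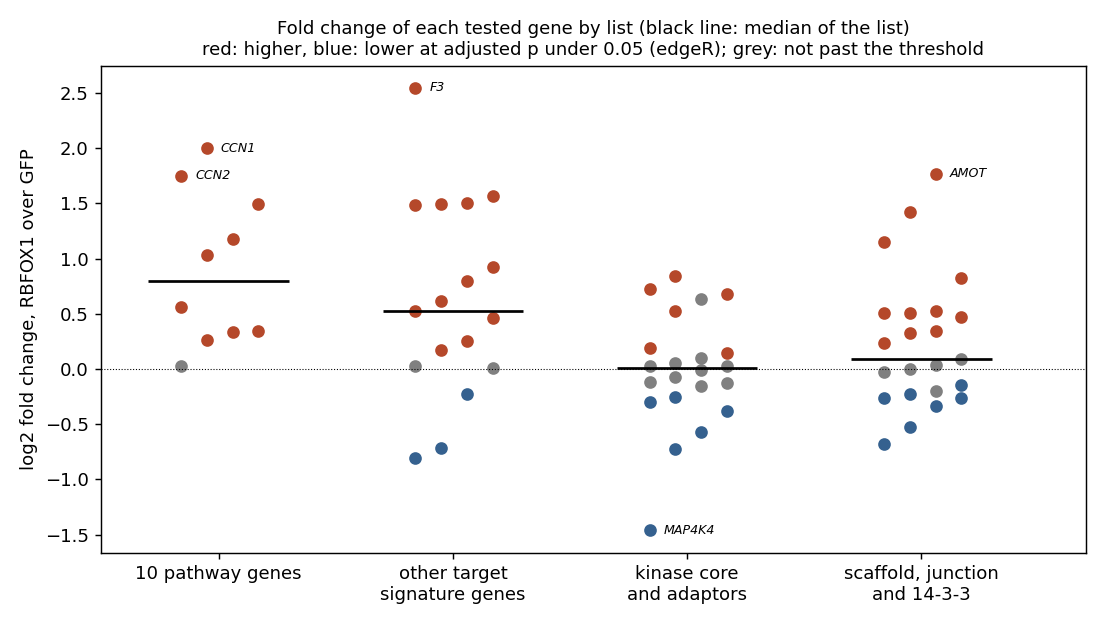
Log2 fold change of RBFOX1 over GFP cells (vertical axis) for every tested gene of 4 lists, one point per gene, with the median of each list as a line. The 10 pathway genes and the other signature genes have medians of 0.80 and 0.53, while the kinase core and the scaffold, junction and 14-3-3 lists have medians of 0.0067 and 0.087 with genes on both sides of 0.

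For each target gene, the protein-coding genes with the most similar course over the 6 libraries were found by the root mean square difference of centred log2 CPM, among 11059 genes with a mean of at least 50 normalized counts. For CCN2 these were NACAD (0.0423), DIAPH3 (0.0467) and CACNA1C (0.0517). For AMOTL2 they were COQ8A (0.0194), BUB1B (0.0242) and LYPD6 (0.0287), and for ANKRD1 they were KLF11 (0.0294), FUT1 (0.0316) and UAP1 (0.0318). For CCN1 the nearest genes, SIPA1L2 (0.109), SLC5A3 (0.113) and NXN (0.116), were less alike. With 2 groups of 3 libraries this measure mostly finds genes with the same fold change, and none of these genes was among the pathway lists.

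RBFOX1 binds the sequence written TGCATG in DNA letters, and its sites in 3′ UTRs were the interest of the study, so this motif was searched on the sense strand of each gene's 3′ UTR, as annotated in its canonical transcript, (GENCODE release 44, GRCh38). Of the 10 genes, 5 held 1 site each, namely YAP1, TEAD1, TEAD2, TEAD3 and AMOTL2. Of the 14049 tested protein-coding genes with an annotated 3′ UTR, 36.5% held at least 1. WWTR1, TEAD4, CCN1, CCN2 and ANKRD1 held none. The share of genes with a site grows with the length of the 3′ UTR. Among genes with a 3′ UTR within 20% of the same length, it was 63.0% for the length of YAP1 (3484 bases), 88.2% for TEAD1 (7515 bases), 52.5% for AMOTL2 (2358 bases), 34.2% for TEAD3 (1447 bases) and 19.9% for TEAD2 (729 bases). Where no site was found, the share was 64.8% at the length of WWTR1 (3570 bases), 27.0% for CCN2 (1088 bases), 24.4% for CCN1 (908 bases), 21.1% for ANKRD1 (770 bases) and 5.82% for TEAD4 (198 bases). The 5 sites are shown in capitals with 12 bases on either side, 5′ to 3′ on the strand of the gene. They lie at chr11:102231237-102231242 (plus strand) in YAP1, chr11:12941742-12941747 (plus strand) in TEAD1, chr19:49340964-49340969 (minus strand) in TEAD2, chr6:35474541-35474546 (minus strand) in TEAD3 and chr3:134355449-134355454 (minus strand) in AMOTL2.
YAP1: aggttcataatgTGCATGacagaaataagc
TEAD1: tctttaagatgtTGCATGtagggtatgcag
TEAD2: cccccactcctcTGCATGtcttggagagcg
TEAD3: gcccagactcctTGCATGgcttgtgtggtc
AMOTL2: cattcaagaatgTGCATGttcttagccacc
Genes with a site had log2 fold changes from 0.024 in TEAD3 to 1.17 in AMOTL2, and genes without one from 0.26 in WWTR1 to 2.0 in CCN1. Gene-level counts do not separate transcripts that differ in their 3′ UTR, and binding of RBFOX1 to these letters was not measured in these libraries.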

How the data were processed

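Paired-end reads of the 6 stranded, rRNA-depleted libraries were aligned to GRCh38 by HISAT2. The authors then used HTSeq-count (intersection-strict) on Ensembl annotation, and their deposited files hold the raw count of each gene, 1 file per library. Their deposited table of a DESeq2 comparison (means, log2 fold changes, errors and p-values) was not used. Between 52 and 61.9% of read pairs fell to a gene, and the classes without a gene (no feature 6.61 to 8.74%, ambiguous 6.89 to 9.35%, and others) were left out.

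The quasi-likelihood test of edgeR 4.0.16 (R 4.3.3; two-sided) was run on TMM-scaled counts of the 20536 genes whose sum reached 10. The model held the plasmid alone, and p-values were adjusted by Benjamini-Hochberg over those genes. The standard error was the log2 fold change divided by the square root of F. FPKM used the union of GENCODE 44 exons, a later annotation than that of the counts, and 98.1% of identifiers matched. Ratios and shares were compared with exact permutation tests.

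The 10 genes and the pathway lists were chosen with earlier results of these data known, and the lists were written by hand. From the kinase, scaffold and signature lists, the 4 genes with the largest absolute log2 fold change past the threshold, with a mean of at least 50 normalized counts and no overlap between groups, are named, besides LATS1, LATS2, STK3, STK4, the VGLL genes and the tested relatives. LATS2, PTPN14, AMOT and AMOTL1 are in 2 lists each.

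Replicates are described as biological by the study. Replicate pairs differed by more than counting noise (chi-square per degree of freedom at least 1.60). Limits of 3 counts cover counting error only. The procedure was tried on simulated data with the same groups and depths, the same noise in every library and 200 changed genes. There edgeR recovered 196 of the 200 with 8 false calls. Far more genes were called in the real data, so the simulation did not test calls under so broad a change. DESeq2 1.42.0 and limma-voom (limma 3.58.1), other scalings, filters, a stricter threshold, a fold minimum, a replicate block and each replicate left out were alternatives.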

Additional observations from a re-analysis of the deposited data

How the results depend on the processing

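The count of 9 pathway genes higher and 0 lower was the same under DESeq2, limma-voom, other scalings and filters, a threshold of 0.01, the replicate block and each replicate left out. Requiring more than a 1.5-fold change in the test was the setting that lowered most counts, by its construction. It called 1711 genes higher and 1062 lower over all genes, 5 of the 10 pathway genes higher, 1 higher and 2 lower in the kinase core, 4 higher and 0 lower among the scaffold, junction and 14-3-3 genes, 0 of the vestigial-like genes, 7 higher and 1 lower in the signature, and 1 higher and 1 lower among the relatives. YAP1, WWTR1, TEAD1 and TEAD2 did not pass it. The count of lower relatives was 1 at a threshold of 0.01 and under DESeq2, and 1 to 2 with a replicate left out, ANKRD23 being the gene lost. Genes that turned direction were TEAD3 (log2 fold change from -0.0645 to 0.0782 over the fits that leave out a replicate), LATS1 (-0.0488 to 0.104), LATS2 (-0.05 to 0.0987) and DOCK5 (-0.0549 to 0.0514), each lowest without GFP replicate 1, and DOCK5 also with upper quartile scaling (-0.0130) and without RBFOX1 replicate 1 (-0.0395); none passed the threshold in either direction, and the cause was not tested. STK3 passed it with upper quartile scaling (edgeR adjusted p = 0.0487). Equal replicate numbers did not pair the libraries: their deviations correlated at -0.174, 0.0348 and -0.0586 over 12012 genes. With the number as a block, 9046 genes were called, 4588 higher and 4458 lower. Depth limits genes such as ANKRD2, CCN4 and CCN5, with few or no counts.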
